A study of Mus musculus with 18 samples.

Results

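The genes described here are 44 genes of ribosome biogenesis, the pathway that makes ribosomes in the nucleolus. They were chosen by symbol for their function in that pathway, with no measured value in the rule. Earlier results of these data were known at the time. They fall into 6 roles: 6 act in transcription by RNA polymerase I, 3 form the core of box C/D snoRNPs, 4 form the core of box H/ACA snoRNPs, 12 process the small subunit, 16 assemble the large subunit and 3 are scaffold proteins of the nucleolus. The sgNAT10 mRNA table held 43 of the 44 among 17379 genes (Wdr74 was not found there by symbol or identifier), the Ribo-seq table held 44 among 10974, and the sgMyc table held 44 among 28738. The cells were TC1, a mouse tumour line that the labels call fibrosarcoma, in 18 libraries. The sgNAT10 cells carried a guide RNA against Nat10 and the sgMyc cells a guide RNA against Myc, and each was set against unedited wild-type (WT) cells of its own set. The sgNAT10 and WT cells gave 2 mRNA and 2 Ribo-seq libraries each, where Ribo-seq counts the RNA fragments covered by ribosomes (footprints), and 1 acetylated-RNA precipitate with 1 input each. The sgMyc and WT cells of the other set gave 3 mRNA libraries each, called K1, K2 and K3 for sgMyc. The sources used here give no control guide, do not say whether an edited line was 1 clone or a pool, and do not say whether replicates came from separate cultures. The p-values then measure only the spread between these libraries, which may be technical.

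Ribosome production starts with RNA polymerase I, which copies the ribosomal DNA into 1 long precursor RNA with the help of factors such as UBF, the product of Ubtf, and treacle, the product of Tcof1. Small nucleolar ribonucleoproteins (snoRNPs) modify that precursor, the C/D class by ribose methylation and the H/ACA class by turning uridine into pseudouridine, while large complexes fold, cut and assemble it into the small and the large subunit. MYC is a transcription factor well known for driving many of these genes in growing cells. NAT10 is itself a nucleolar enzyme, which acetylates cytidines in RNA, among them cytidines of the ribosomal RNA of the small subunit.

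The E-box CACGTG, which MYC binds with its partner MAX and which other factors bind too, is shown where it stood near the start of a member gene, because MYC is the target of the second guide. RefSeq promoters of GRCm38.p6, each 250 bases before and 50 bases after 1 annotated start, were at hand for 38 of the 44 members. CACGTG reads the same on both strands, so that 1 search covers both. It stood in 11 of the 38 members (28.9%), against 8.91% of 17492 protein-coding genes. In the 250 bases before the start it stood in 4 members (10.5%), against 7.61% of protein-coding genes, and in the 50 bases after the start in 7 members (18.4%), against 1.32%. These shares are descriptions with no test, and an E-box in this window is a match of letters and not a shown binding site. The 11 matches follow 5′ to 3′ on the strand of the gene, with the E-box in capitals and up to 12 bases either side. They are ordered by position, from before the start to after it.
Imp4: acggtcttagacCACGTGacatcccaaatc
Nop2: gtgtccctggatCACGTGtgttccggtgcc
Nol11: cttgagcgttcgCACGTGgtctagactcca
Utp18: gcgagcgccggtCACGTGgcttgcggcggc
Pes1: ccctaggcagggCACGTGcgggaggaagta
Utp4: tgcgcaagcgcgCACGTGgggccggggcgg
Wdr43: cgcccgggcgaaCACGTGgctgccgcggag
Tsr1: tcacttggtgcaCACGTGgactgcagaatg
Grwd1: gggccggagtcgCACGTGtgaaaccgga
Utp20: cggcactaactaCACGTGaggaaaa
Mybbp1a: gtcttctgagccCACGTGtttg
Counted from the start site, the first base of the E-box lay at -121 in Imp4, -60 in Nop2, -43 in Nol11 and -20 in Utp18, and at 3 in Pes1, 16 in Utp4, 18 in Wdr43, 25 in Tsr1, 35 in Grwd1, 38 in Utp20 and 41 in Mybbp1a. In Wdr43 and Grwd1 the start used lay inside the annotated gene, which began at chr17:71616178 and, on the minus strand, at chr7:45830994. Counted from there, both E-boxes lay past the 50 bases after the start.

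Nol11, with an E-box, and Nolc1, with none in its window, are shown with the whole 250 bases before the start, since both fell in sgNAT10 mRNA. Nol11 lies at chr11:107189382-107189631 on the minus strand and Nolc1 at chr19:46075597-46075846 on the plus strand of GRCm38.p6.
Nol11: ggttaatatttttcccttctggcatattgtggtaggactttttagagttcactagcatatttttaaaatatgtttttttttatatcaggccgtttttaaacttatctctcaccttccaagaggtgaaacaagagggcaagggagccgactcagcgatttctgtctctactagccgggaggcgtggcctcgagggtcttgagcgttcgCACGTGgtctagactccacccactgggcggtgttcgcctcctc
Nolc1: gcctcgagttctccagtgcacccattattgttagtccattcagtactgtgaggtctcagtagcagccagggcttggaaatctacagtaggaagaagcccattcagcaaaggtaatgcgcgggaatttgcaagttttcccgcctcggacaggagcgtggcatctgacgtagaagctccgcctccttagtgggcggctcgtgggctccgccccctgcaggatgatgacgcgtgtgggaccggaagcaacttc
GC made up 46.8% of the Nol11 window and 56.4% of the Nolc1 window. Other forms of the E-box were not searched.

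The sgMyc set held 51875052 to 65768024 counted reads a library. Whole reads worked back from the FPKM values (fragments scaled by gene length and library size) came to 16010397 to 20695565 for the sgNAT10 mRNA set and 2797030 to 3181797 for Ribo-seq, and are lower bounds, since the smallest fitting whole numbers were taken. A member had a median of 1558.5 mRNA reads in the sgNAT10 set (fewest 225, Grwd1), 483 footprints (fewest 14, Wdr74) and 4415 counts in the sgMyc set (fewest 819, Rrp12). Nat10 mRNA was at 3.59 and 3.95 FPKM in sgNAT10, against 5.36 and 5.30 FPKM in WT, and Myc mRNA at 40.0 and 40.9 FPKM in sgNAT10, against 115 and 117 FPKM in WT. In the other set Myc mRNA was at 21.1, 20.9 and 34.1 FPKM in K1, K2 and K3, against 64.8, 61.6 and 70.8 FPKM in WT. K3 stood apart from K1 and K2: over 11837 genes its log2 values correlated with theirs at 0.931 for each, below the 0.995 between K1 and K2, and with the WT libraries at 0.959 to 0.963, above the 0.904 to 0.910 of K1 and K2. The label of K3 could not be checked beyond its Myc mRNA, which lay below all WT libraries and above K1 and K2, and what sets K3 apart was not tested. Results of the sgMyc set are therefore given by library, and with and without K3. Of the defining markers of fibroblasts the table of the sgNAT10 set lacked Lum, and the epithelial markers Epcam and Krt5 were absent or at 0 in each table.

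The first comparison asked what happened to the mRNA of ribosome biogenesis genes in sgNAT10 cells. Of the 43 members measured, 32 were lower in sgNAT10 past the test, 3 were higher and 8 did not pass, by limma on log2(FPKM + 1) with adjusted p-values under 0.05. Among all 11735 genes tested, 29.6% were lower and 33.7% higher. The median log2 fold change was -0.35 over the members and 0.01 over all genes. Falls were found in each of the 6 roles, and the 3 scaffold genes had the lowest role median, -0.87. All 43 members passed the filter of a mean of at least 1 FPKM. In 37 members both sgNAT10 libraries lay below both WT libraries, and in 3 above, where 39% and 43.3% of all genes did so.

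Members ranged widely in WT abundance: mean mRNA levels ran from 7.52 FPKM for Las1l to 875 FPKM for Npm1, with a median of 29.0 FPKM. The 3 scaffold genes had a median of 182 FPKM and were the most abundant role, and the small subunit genes, with a median of 19.99 FPKM, the least.

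**Figure D1:**
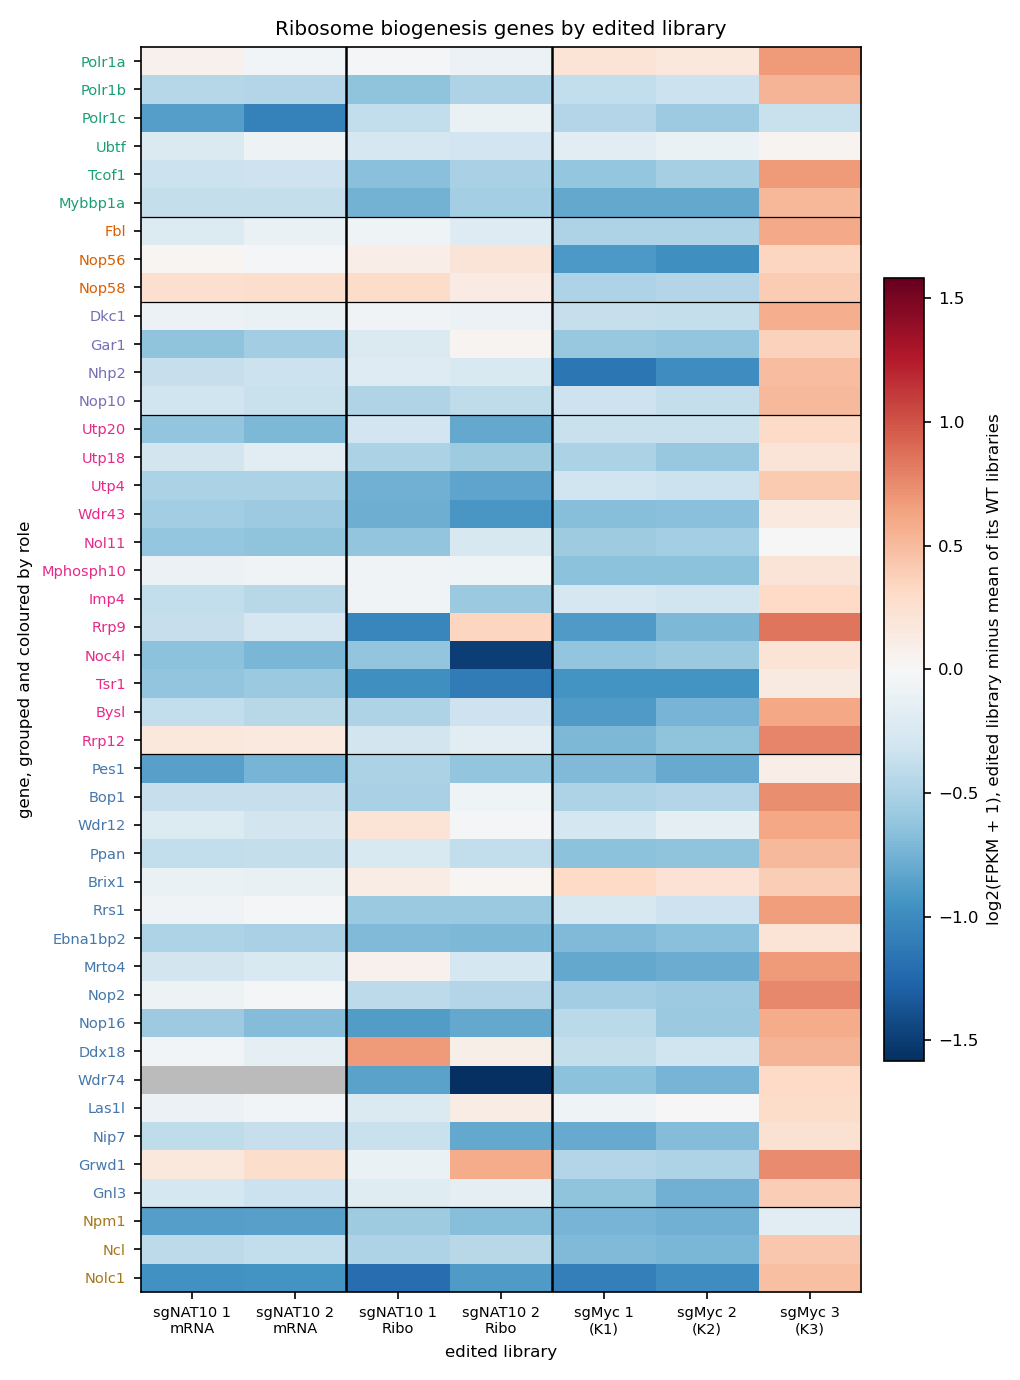
Difference of each edited library from the mean of its WT libraries, log2(FPKM + 1), for the 44 members (rows, grouped and coloured by role) in 2 sgNAT10 mRNA, 2 sgNAT10 Ribo-seq and 3 sgMyc mRNA libraries (columns); blue is lower and red higher than WT, and grey marks Wdr74, which was not found in the sgNAT10 mRNA table. K1 and K2 lie below and K3 above all WT libraries in 38 of 44 rows.

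Of the 6 genes of transcription by RNA polymerase I, 4 fell. Polr1c, a subunit shared by RNA polymerases I and III, had 15.3 and 13.2 FPKM in sgNAT10, against 28.5 and 29.4 FPKM in WT. Both sgNAT10 libraries lay well below both WT libraries (log2 fold change -0.97, SE 0.0703, adjusted p = 0.000239). Polr1b, the second largest subunit of RNA polymerase I, had 14.2 and 14.1 FPKM in sgNAT10, against 19.9 and 19.8 FPKM in WT, with no overlap (log2 fold change -0.46, SE 0.0339, adjusted p = 0.000256). Mybbp1a, a nucleolar protein that binds MYB and joins rRNA transcription to processing, had 86.6 and 86.5 FPKM in sgNAT10, against 114 and 112 FPKM in WT, again with no overlap (log2 fold change -0.38, SE 0.0278, adjusted p = 0.000245). Tcof1, encoding treacle, fell as well (log2 fold change -0.33, SE 0.0317, adjusted p = 0.000591). Polr1a, the largest subunit, had 10.1 and 9.26 FPKM in sgNAT10, against 9.68 and 9.48 FPKM in WT, and here the groups overlapped (log2 fold change 0.01, SE 0.0519, adjusted p = 0.886). Ubtf, which bends ribosomal DNA for the polymerase, was lower in both sgNAT10 libraries without passing (log2 fold change -0.15, SE 0.0583, adjusted p = 0.0686).

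The snoRNP cores moved unevenly. All 4 H/ACA members fell. Gar1, a core protein of the H/ACA particle, had 14.999 and 15.9 FPKM in sgNAT10, against 24.6 and 23.1 FPKM in WT (log2 fold change -0.59, SE 0.0497, adjusted p = 0.000390). Nhp2, another core protein, had 78.6 and 79.5 FPKM in sgNAT10, against 102 and 100.2 FPKM in WT (log2 fold change -0.35, SE 0.0276, adjusted p = 0.000314), and Nop10, the smallest of the particle, had 40.7 and 39.5 FPKM in sgNAT10, against 51.2 and 50.4 FPKM in WT (log2 fold change -0.33, SE 0.0322, adjusted p = 0.000612). In these 3 genes the sgNAT10 libraries lay below the WT libraries with no overlap. Dkc1, the pseudouridine synthase itself, fell by less and passed only close to the threshold (log2 fold change -0.10, SE 0.0325, adjusted p = 0.0451). Of the 3 C/D members, Nop58 rose: this scaffold of the C/D particle had 26.9 and 26.9 FPKM in sgNAT10, against 22.3 and 21.9 FPKM in WT, with both sgNAT10 libraries on top (log2 fold change 0.27, SE 0.0321, adjusted p = 0.00125). Its partner Nop56 had 93.9 and 89.7 FPKM in sgNAT10, against 91.01 and 92.5 FPKM in WT, with overlapping groups (log2 fold change 0.00, SE 0.0338, adjusted p = 0.994). Fbl, the methyltransferase fibrillarin, had 23.2 and 25.2 FPKM in sgNAT10, against 26.5 and 27.995 FPKM in WT and fell by a little, close to the threshold (log2 fold change -0.16, SE 0.0534, adjusted p = 0.0431). Without sgNAT10 replicate 1 its adjusted p was 0.134, without WT replicate 1 0.0575 and without WT replicate 2 0.178.

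Among 12 small subunit processing genes, 10 fell. Tsr1, which acts late on the precursor of the small subunit, had 21.6 and 21.9995 FPKM in sgNAT10, against 33.5 and 33.8 FPKM in WT (log2 fold change -0.61, SE 0.0319, adjusted p = 9.05e-05). Noc4l, whose yeast homologue acts in small subunit maturation, had 13.9 and 13.1 FPKM in sgNAT10, against 22.3 and 22.4 FPKM in WT (log2 fold change -0.69, SE 0.0403, adjusted p = 0.000125). Nol11, a part of the early processing complex with a role in rRNA transcription, had 9.76 and 9.54 FPKM in sgNAT10, against 15.2 and 15.6 FPKM in WT (log2 fold change -0.62, SE 0.0390, adjusted p = 0.000151). The edited libraries of these 3 genes stood apart below WT. The other falls were Utp20 (-0.66), Wdr43 (-0.56), Utp4 (-0.50), Imp4 (-0.42), Bysl (-0.41), Rrp9 (-0.31) and Utp18 (-0.23), each a log2 fold change. Mphosph10, a part of the same processome, did not pass (log2 fold change -0.08, SE 0.0383, adjusted p = 0.135). Rrp12, which helps export of the subunits, had 9.08 and 8.97 FPKM in sgNAT10, against 8.32 and 7.65 FPKM in WT and rose narrowly (log2 fold change 0.16, SE 0.0521, adjusted p = 0.0444). This rise did not pass without sgNAT10 replicate 1 (adjusted p = 0.124), sgNAT10 replicate 2 (0.0962) or WT replicate 2 (0.202), nor with median scaling (0.141) or quantile normalization (0.238).

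In the large subunit 10 of 15 members fell. Pes1, which with Bop1 and Wdr12 forms the PeBoW complex of large subunit processing, had 35.6 and 38.8 FPKM in sgNAT10, against 65.5 and 65.2 FPKM in WT (log2 fold change -0.80, SE 0.0473, adjusted p = 0.000129). Bop1 (-0.36) and Wdr12 (-0.26) fell too, by smaller log2 fold changes. Ebna1bp2, an assembly factor of early large subunit particles, had 25.6 and 24.9 FPKM in sgNAT10, against 36.7 and 35.6 FPKM in WT (log2 fold change -0.50, SE 0.0345, adjusted p = 0.000208), and Nop16, a nucleolar assembly factor, had 24.8 and 22.9 FPKM in sgNAT10, against 38.2 and 36.9 FPKM in WT (log2 fold change -0.63, SE 0.0473, adjusted p = 0.000264). In each of Pes1, Ebna1bp2 and Nop16 the sgNAT10 values lay below the WT values. Ppan (-0.38), Nip7 (-0.39), Gnl3, which encodes the GTPase nucleostemin (-0.31), Mrto4 (-0.27) and Brix1 (-0.12) completed the falls. Grwd1, a histone-binding protein whose yeast homologue acts in large subunit assembly, had 27.2 and 29.4 FPKM in sgNAT10, against 24.4 and 23.8 FPKM in WT and rose, with no overlap (log2 fold change 0.22, SE 0.0470, adjusted p = 0.0106); without WT replicate 2 the adjusted p was 0.0521 and with quantile normalization 0.0603. Rrs1 (-0.05), the rRNA methyltransferase gene Nop2 (-0.06), the helicase gene Ddx18 (-0.09) and Las1l, of the nuclease that cuts the spacer of the large subunit precursor (-0.07), did not pass.

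All 3 nucleolar scaffolds fell. Npm1, the abundant chaperone nucleophosmin, had 478 and 481 FPKM in sgNAT10, against 887 and 864 FPKM in WT. The sgNAT10 libraries differed from each other by far less than from WT (log2 fold change -0.87, SE 0.0277, adjusted p = 2.45e-05). Nolc1, which carries snoRNPs and links them to RNA polymerase I, had 38.3 and 38.6 FPKM in sgNAT10, against 75.9 and 75.01 FPKM in WT, with the same separation (log2 fold change -0.96, SE 0.0281, adjusted p = 2.06e-05). Ncl, the RNA-binding protein nucleolin, had 137 and 138 FPKM in sgNAT10, against 181 and 182 FPKM in WT (log2 fold change -0.40, SE 0.0258, adjusted p = 0.000166).

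**Figure D2:**
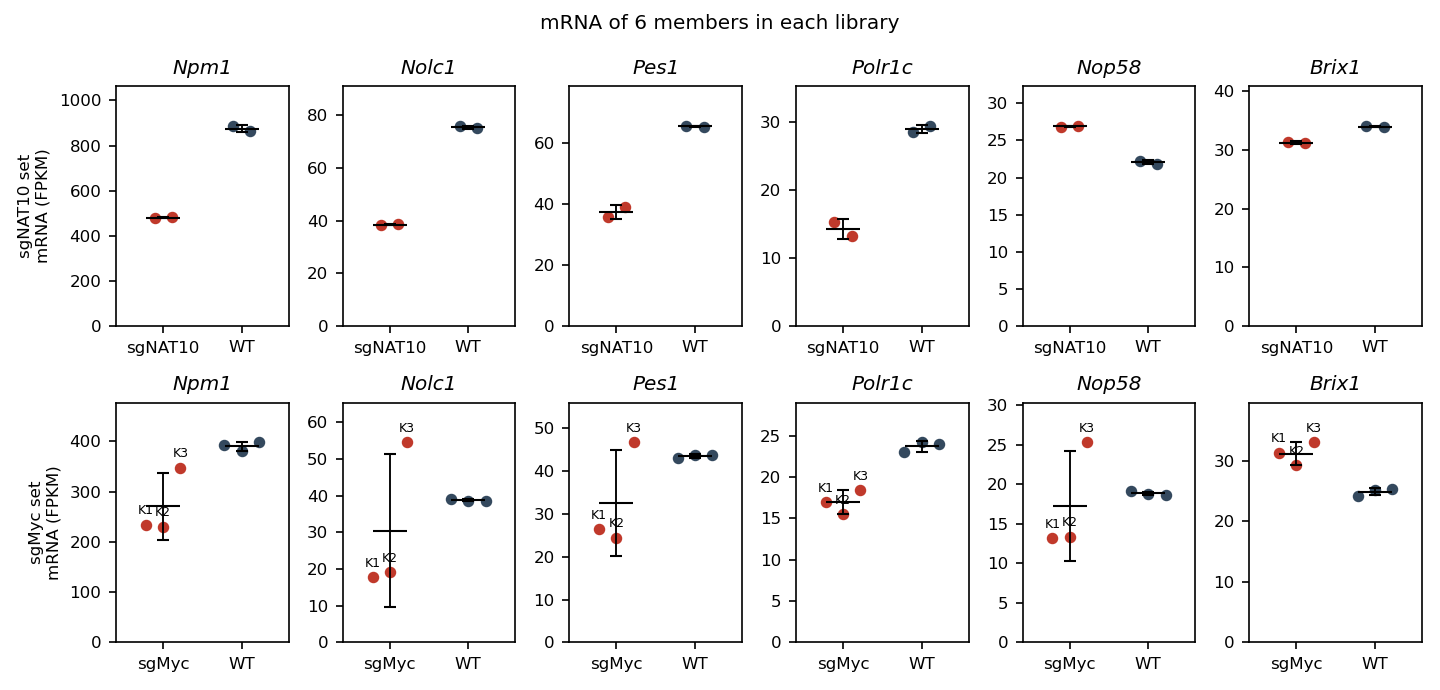
mRNA level (FPKM, linear axes from 0) of 6 members in each library of the sgNAT10 set (upper row, 2 libraries a group) and of the sgMyc set (lower row, 3 a group); points are libraries, horizontal bars the mean and error bars the SD. Npm1, Nolc1, Pes1 and Polr1c lie lower in sgNAT10 and Nop58 higher; in the sgMyc set K3 lies above WT for Nolc1, Pes1 and Nop58 while K1 and K2 lie below.

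Values of other kinds moved with the same groups. The summed mRNA of 12 mesenchymal and fibroblast markers, 11 of them in the table, was 596 to 625 FPKM in sgNAT10, against 308 to 319 FPKM in WT, and that of 13 mitochondrially encoded genes was 14726 to 16353 FPKM in sgNAT10, against 17433 to 19730 FPKM in WT. Of 8 macrophage markers, 3 were in the table, summing to 12.2 to 13.7 FPKM in sgNAT10, against 5.49 to 5.996 FPKM in WT, with Ptprc, Adgre1, Itgam, Lyz2 and C1qa absent or at 0. T cell, endothelial and epithelial markers each summed to under 1 FPKM in every mRNA library. The RNA Gm23935 stood at 109575 and 206295 FPKM in sgNAT10, against 104693 and 101797 FPKM in WT, high in sgNAT10 replicate 2 alone. The part of these values in the members' falls was not tested. With median scaling the median log2 fold change was -0.41 over the members and -0.04 over all genes. With quantile normalization it was -0.42 and -0.03. Bulk FPKM values are shares of a library, and fewer cells of a kind cannot be told apart from less RNA per cell.

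A further 127 genes of the pathway, outside the 44, were set beside the members. Their lists, like the members, were chosen with earlier results of these data known, so they are no independent check. Of 125 tested in sgNAT10 mRNA, 84 fell and 6 rose, where 29.6% of all genes fell and 33.7% rose. The median log2 fold change of the 125 was -0.25. By list, 8 of 13 other polymerase I genes fell, 30 of 44 small subunit genes, 32 of 43 large subunit genes, 8 of 10 snoRNP assembly genes and 6 of 15 exosome and trimming genes. The exosome and trimming list, with 2 rises, had a median log2 fold change of -0.03, the nearest to 0 of these lists. Taf1b, a subunit of the selectivity factor that brings RNA polymerase I to its promoter, had 1.17 and 1.35 FPKM in sgNAT10, against 6.33 and 5.33 FPKM in WT (log2 fold change -1.59, SE 0.0934, adjusted p = 0.000125). Pdcd11, the homologue of yeast Rrp5, had 9.23 and 8.91 FPKM in sgNAT10, against 19.9 and 19.1 FPKM in WT (log2 fold change -1.03, SE 0.0424, adjusted p = 4.75e-05). In the large subunit list Mak16 (-0.84), Cebpz (-0.87) and the AAA ATPase gene Mdn1 (-0.91) fell, as log2 fold changes.

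The second comparison asked whether the members also carried fewer footprints in sgNAT10. Nolc1, Wdr43 and Nop16 were lower past the test and none of the 44 members was higher, by limma with adjusted p-values under 0.05. Over all 9707 genes, 1.28% were lower and 1.81% higher. The median log2 fold change was -0.38 over the members and 0.00 over all genes, and 38 of 44 members had one below 0. In 27 members both sgNAT10 libraries lay below both WT libraries and in 1, Nop58, above, where 25.6% of all genes lay so in each direction. An unadjusted p under 0.05 was reached by 19 of 44 members and by 2009 of all 9707 genes.

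Nolc1 had 70.4 and 87.8 FPKM in sgNAT10, against 159.8 and 168 FPKM in WT (log2 fold change -1.05, SE 0.164, adjusted p = 0.0317). The small subunit gene Wdr43 had 92.8 and 83.995 FPKM in sgNAT10, against 154 and 165 FPKM in WT (log2 fold change -0.85, SE 0.143, adjusted p = 0.0406), and Nop16 had 54.8 and 57.5 FPKM in sgNAT10, against 105 and 98.2 FPKM in WT (log2 fold change -0.85, SE 0.152, adjusted p = 0.0482). In each of these 3 the sgNAT10 libraries lay below WT without overlap. None of these calls passed when any 1 of the 4 libraries was left out: without sgNAT10 replicate 1, sgNAT10 replicate 2, WT replicate 1 or WT replicate 2, limma called 0 members. In those fits it called 0, 0, 9 and 7 genes of the whole table. An unadjusted p under 0.05 was reached by 12 members and 1175 genes without sgNAT10 replicate 1, and by 10 members and 1211 genes without sgNAT10 replicate 2. On reads recovered from the FPKM values edgeR called 9 members, all lower, and 706 of 9833 genes, and without a trend in the variance limma called 0 members and 87 of 9707 genes.

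The next members by p did not pass. Utp4, of the early small subunit complex, had 57.2 and 54.4 FPKM in sgNAT10, against 94.1 and 101 FPKM in WT (log2 fold change -0.80, SE 0.153, adjusted p = 0.0591), and Tsr1 had 32.4 and 29.3 FPKM in sgNAT10, against 72.7 and 56.97 FPKM in WT (log2 fold change -1.04, SE 0.200, adjusted p = 0.0594). In both genes the 2 groups were apart. Npm1 had 766 and 710.3 FPKM in sgNAT10, against 1042 and 1224 FPKM in WT (log2 fold change -0.61, SE 0.120, adjusted p = 0.0611), Ebna1bp2 had 71.03 and 70.3 FPKM in sgNAT10, against 119.8 and 112 FPKM in WT (log2 fold change -0.70, SE 0.145, adjusted p = 0.0677) and Mybbp1a had 157 and 183 FPKM in sgNAT10, against 256 and 276 FPKM in WT (log2 fold change -0.64, SE 0.138, adjusted p = 0.0734). Ncl (-0.46) and Pes1 (-0.56) followed as log2 fold changes, and all of these had both sgNAT10 libraries below WT. Wdr74, an assembly factor of the large subunit measured only in footprints in this set, had 6.22 and 3.34 FPKM in sgNAT10, against 12.8 and 11.3 FPKM in WT (log2 fold change -1.22, SE 0.363, adjusted p = 0.139), on few reads. The groups did not overlap there either. Rrp9, a small subunit factor, showed how loose single values were, with 6.69 and 18.8 FPKM in sgNAT10, against 22.8 and 9.33 FPKM in WT, where the libraries crossed. In the same footprint libraries the mesenchymal and fibroblast markers summed to 1608 to 1643 FPKM in sgNAT10, against 799 to 802 FPKM in WT, and the 7 mitochondrially encoded genes in the table to 168 to 262 FPKM in sgNAT10, against 1069 to 1121 FPKM in WT; their part in the members' footprints was not tested. Of 125 further pathway genes tested in footprints, Pdcd11 (log2 fold change -1.63, adjusted p = 0.0168 by limma) and Cebpz (log2 fold change -1.36, adjusted p = 0.0248 by limma) were lower and 0 were higher, with a median log2 fold change of -0.34. Of all genes tested in footprints, 1.28% were lower and 1.81% higher.

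Across the 43 members measured in both assays, the 2 log2 fold changes correlated with Pearson's r = 0.68 and Spearman's rho = 0.70, a description over genes of the same libraries and of unequal depth. Of the 32 members lower in mRNA, 30 also had a footprint fold change below 0, with a median of -0.45. The mRNA of Polr1c fell by 0.97 on the log2 scale, and its footprints were 42.9 and 52.4 FPKM in sgNAT10, against 45.2 and 70.1 FPKM in WT, with overlapping groups (log2 fold change -0.24, SE 0.255, adjusted p = 0.649).

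**Figure D3:**
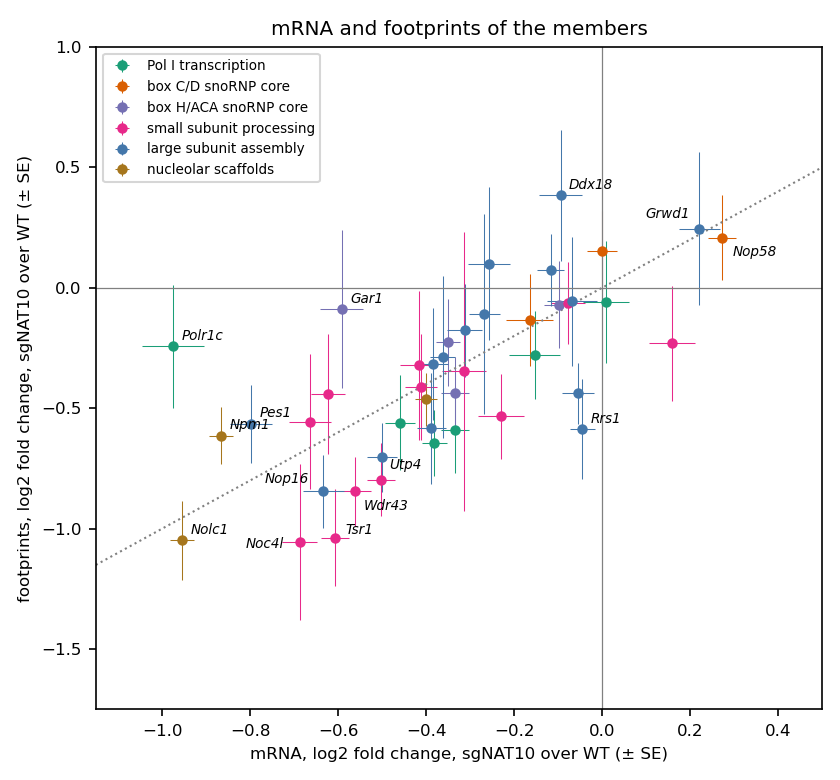
Log2 fold change, sgNAT10 over WT, of footprints (vertical) against mRNA (horizontal) for 43 members, coloured by role, with standard errors; the dotted line marks equal change. Most members lie below 0 on both axes, with Nolc1 near the line of equal change and Polr1c above it.

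Footprints per mRNA, the translational efficiency, was tested as the interaction of genotype and assay in limma. None of the 43 members passed, where 0.261% of 9200 genes did, and 5 members and 1091 genes had an unadjusted p under 0.05. The median log2 difference in efficiency was 0.00 over the members and -0.02 over all genes. Those with the smallest p were Nop2 (log2 difference -0.38, SE 0.0943, adjusted p = 0.188), Utp4 (log2 difference -0.29, SE 0.110, adjusted p = 0.371), Rrs1 (log2 difference -0.54, SE 0.205, adjusted p = 0.378), Wdr43 (-0.28), Polr1c (log2 difference 0.73, SE 0.300, adjusted p = 0.411), Tsr1 (-0.43), Utp18 (-0.30), Mybbp1a (-0.26), Npm1 (0.25) and Tcof1 (-0.26). Nop2 had near-equal mRNA in both genotypes (40.5 and 41.8 FPKM in sgNAT10, against 43.7 and 41.9 FPKM in WT) and fewer footprints in sgNAT10 (133 and 128 FPKM in sgNAT10, against 176 and 179 FPKM in WT). Rrs1 likewise had 48.5 and 49.2 FPKM in sgNAT10, against 50.3 and 50.5 FPKM in WT of mRNA and 45.96 and 45.8 FPKM in sgNAT10, against 81.6 and 59.01 FPKM in WT of footprints. Neither difference in efficiency passed. The fit gave each gene 1 variance over mRNA and footprint libraries alike. With weights for each assay it called 0 members and 3 of 9200 genes. Without the Ribo-seq library of WT replicate 2 the median log2 difference over the members was -0.11, and without that of sgNAT10 replicate 1 it was -0.03. Each of these 2 fits left 1 Ribo-seq library in a group, and the calls among the members then differed from those of the main fit.

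The third comparison asked what the guide against Myc did to the same genes, library by library. In K1, 42 of 44 members lay below all WT libraries, where 43.8% of all genes did. In K2, 41 did, where 44% of genes did. In K3, 41 of 44 lay above all WT libraries, where 35.7% of genes did. The pattern of K1 and K2 below and K3 above all WT libraries was seen in 38 of 44 members and in 11.4% of 16794 genes. The median difference from the WT mean, in log2(FPKM + 1), was -0.59 in K1, -0.59 in K2 and 0.42 in K3 over the members, and -0.02 in each of the 3 over all genes. K3 held a median of 1.99 times the mean FPKM of K1 and K2 over the members, from 1.09 for Brix1 to 3.42 for Rrp9, and 0.962 times over all genes.

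Nolc1 had 17.7, 19.1 and 54.4 FPKM in K1, K2 and K3, against 39.03, 38.5 and 38.6 FPKM in WT. K1 and K2 lay at the bottom, WT between and K3 on top. Nhp2 had 20.1, 22.5 and 64.6 FPKM in K1, K2 and K3, against 45.997, 44.05 and 46.9 FPKM in WT, and Nop56 had 48.6, 46.7 and 117 FPKM in K1, K2 and K3, against 90.4, 92.6 and 93.5 FPKM in WT, in the same order. Rrp9 had 6.89, 7.97 and 25.4 FPKM in K1, K2 and K3, against 13.2, 14.2 and 13.6 FPKM in WT and Rrp12 had 2.91, 3.11 and 9.93 FPKM in K1, K2 and K3, against 5.40, 5.35 and 5.46 FPKM in WT, the genes with the widest gap between K3 and the other 2. Mybbp1a, of the polymerase I group, had 39.3, 39.3 and 101 FPKM in K1, K2 and K3, against 69.1, 69.1 and 70.4 FPKM in WT. Again K1 and K2 were alike and K3 was the highest of the 6 libraries. Nop58, which had risen in sgNAT10 mRNA, had 13.2, 13.3 and 25.3 FPKM in K1, K2 and K3, against 19.1, 18.8 and 18.7 FPKM in WT, and Grwd1 had 12.6, 12.4 and 30.4 FPKM in K1, K2 and K3, against 17.5, 18.1 and 17.7 FPKM in WT. In both genes K1 and K2 were below WT and K3 above.

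A few members did not follow that order. All 3 sgMyc libraries lay below WT in 2 members, where 21.7% of all genes did so, and above WT in 2, where 16.2% did. Polr1c had 16.9, 15.5 and 18.4 FPKM in K1, K2 and K3, against 22.99, 24.2 and 24.04 FPKM in WT, with all 3 sgMyc libraries below WT. Npm1 had 234, 230.0 and 347 FPKM in K1, K2 and K3, against 393, 379.8 and 398 FPKM in WT, where K3 was also below WT though above K1 and K2. Polr1a had 8.60, 8.27 and 12.2 FPKM in K1, K2 and K3, against 7.48, 7.33 and 6.95 FPKM in WT and Brix1, which takes part in early large subunit assembly, had 31.3, 29.3 and 33.02 FPKM in K1, K2 and K3, against 24.2, 25.2 and 25.4 FPKM in WT. In both genes all 3 sgMyc libraries were above WT. Nol11 had 8.13, 8.29 and 12.4 FPKM in K1, K2 and K3, against 12.9, 11.9 and 12.8 FPKM in WT, with K3 inside the WT range, and Las1l had 6.53, 6.86 and 8.62 FPKM in K1, K2 and K3, against 6.89, 6.55 and 7.25 FPKM in WT, with K1 below, K2 inside and K3 above it.

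With K1, K2 and K3 together, edgeR's quasi-likelihood test on the counts called Polr1c lower (log2 fold change -0.48, SE 0.0948, adjusted p = 0.0208) and Brix1 higher (log2 fold change 0.33, SE 0.0808, adjusted p = 0.0422) of 44 members, where 8.86% of all genes were lower and 7.11% higher. The median log2 fold change was -0.12 over the members and -0.03 over all genes. Members of the other roles with the smallest p did not pass: Npm1 (log2 fold change -0.52, SE 0.183, adjusted p = 0.107), Nol11 (log2 fold change -0.38, SE 0.187, adjusted p = 0.233), Nop56 (log2 fold change -0.37, SE 0.373, adjusted p = 0.562) and Nhp2 (log2 fold change -0.34, SE 0.456, adjusted p = 0.666). Polr1c kept the sign without any 1 library but passed only without K3, and was lost without K1 (adjusted p = 0.0729), K2 (0.0677), W1 (0.0885), W2 (0.102) or W3 (0.108), where W1 to W3 are the WT libraries. Brix1 was lost without K1 (0.0840), W1 (0.183), W2 (0.160) or W3 (0.156).

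Without K3, 41 of 44 members were lower in sgMyc, 2 were higher and Las1l did not pass, where 26.9% of 17485 genes were lower and 26.6% higher. The median log2 fold change was then -0.58 over the members and -0.01 over all genes. Polr1a and Brix1 were the 2 higher members (log2 fold change 0.25, SE 0.0419, adjusted p = 0.000860 and log2 fold change 0.31, SE 0.0442, adjusted p = 0.000288). The falls reached all 12 small subunit genes, led by Tsr1 (log2 fold change -0.98, SE 0.0425, adjusted p = 1.56e-07), 14 of 16 large subunit genes, all 4 H/ACA genes, led by Nhp2 (log2 fold change -1.07, SE 0.0658, adjusted p = 1.32e-06), all 3 C/D genes, led by Nop56 (log2 fold change -0.92, SE 0.0332, adjusted p = 4.85e-08), and all 3 scaffolds, led by Nolc1 (log2 fold change -1.04, SE 0.0400, adjusted p = 7.15e-08). Without K1 or K2 the median was 0.07, so that the sign of the median turned with the sgMyc libraries that entered. Among the members lower without K3, Wdr12 (0.15), Rrs1 (0.11), Grwd1 (0.07), Bop1 (0.06) and Nop2 (0.03) had log2 fold changes above 0 with K3 in. So did Dkc1 (0.02), Ddx18 (0.02), Polr1b (0.009) and Nop10 (0.004). Myc mRNA was lower than WT in each of K1, K2 and K3. Nat10 mRNA was at 3.52, 3.31 and 6.27 FPKM in K1, K2 and K3, against 5.01, 4.86 and 5.13 FPKM in WT. Summed mitochondrially encoded mRNA was 20007, 18984 and 17449 FPKM in K1, K2 and K3, against 27491 to 30265 FPKM in WT, low in all 3. The mesenchymal and fibroblast markers summed to 1165 to 2071 FPKM in sgMyc, against 1448 to 1512 FPKM in WT. Of 8 macrophage markers, 5 were measured and only 2 reached a mean of 1 FPKM, with Ptprc, Adgre1 and C1qa absent or at 0. Those 5 summed to 15.9 to 29.3 FPKM in sgMyc, against 11.2 to 12.3 FPKM in WT. The part of these values in the differences between K1, K2 and K3 was not tested.

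**Figure D4:**
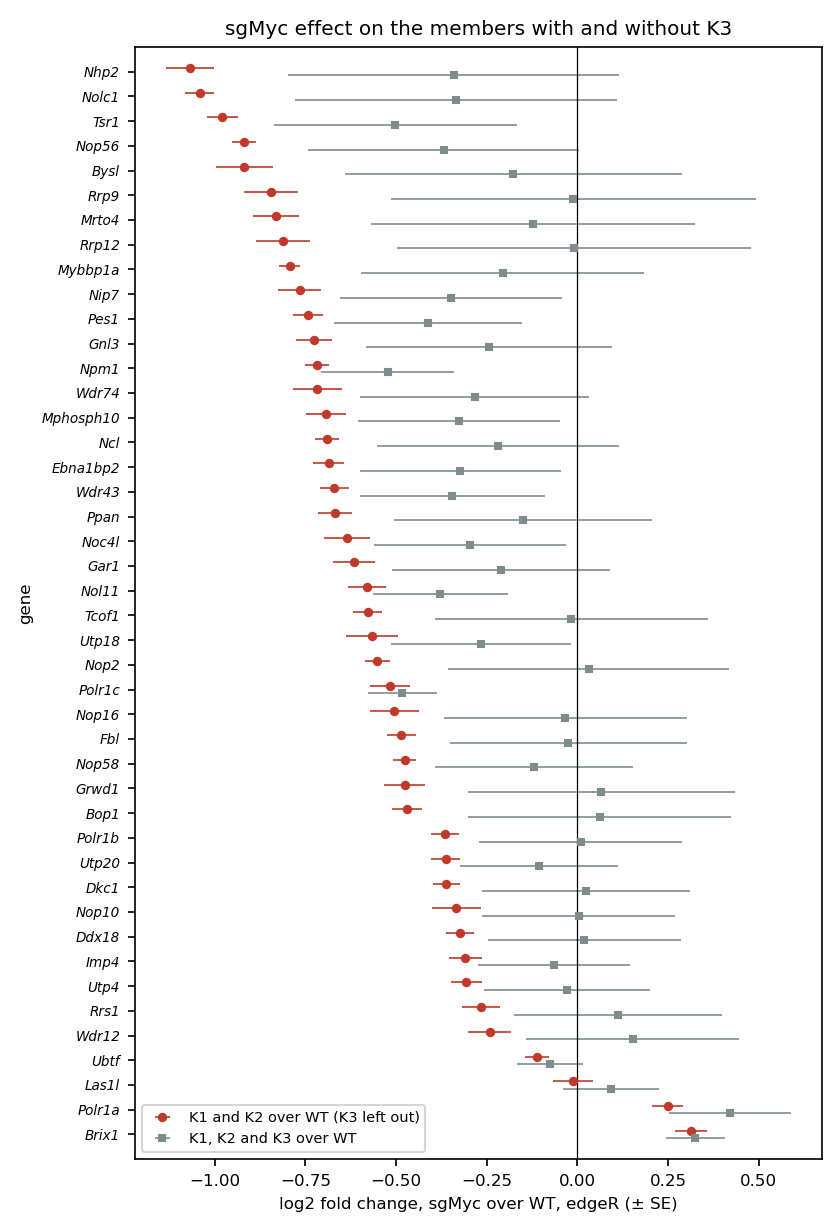
Log2 fold change, sgMyc over WT, by edgeR with standard errors for the 44 members, ordered by the value without K3; red circles leave K3 out and grey squares use K1, K2 and K3. Without K3 41 members lie lower past the test, and with K3 most squares lie nearer 0 with wider errors.

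The 127 further pathway genes behaved likewise by library. Of 126 measured, 108 lay below all WT libraries in K1 and 112 in K2, where 43.8% and 44% of all genes did. In K3, 89 lay above all WT libraries, where 35.7% of all genes did. With K3 in, edgeR called 4 lower and 2 higher, where 8.86% and 7.11% of all genes were. Without K3 it called 94 lower and 7 higher, where 26.9% and 26.6% of all genes were. Taf1b had 1.97, 2.01 and 2.07 FPKM in K1, K2 and K3, against 4.16, 4.51 and 5.84 FPKM in WT (log2 fold change -1.26, SE 0.163, adjusted p = 0.00544). Here K3 did not part from K1 and K2. Eri1, a nuclease that trims ribosomal RNA, had 4.36, 4.37 and 4.61 FPKM in the sgMyc libraries, against 7.62, 8.19 and 7.85 FPKM in WT (log2 fold change -0.83, SE 0.0740, adjusted p = 0.00197). Ddx24, an RNA helicase, had 21.5, 21.7 and 14.3 FPKM in K1, K2 and K3, against 9.93, 10.3 and 10.3 FPKM in WT (log2 fold change 0.91, SE 0.156, adjusted p = 0.0137).

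Whether a member responded differently to the 2 guides was tested as the sgMyc effect minus the sgNAT10 effect in limma. The fit covered both mRNA sets, each with its own WT. Each guide was in 1 set only, so that a difference between guides cannot be told apart from one between sets. Brix1 (log2 difference 0.43, SE 0.0899, adjusted p = 0.0118) and Polr1c (log2 difference 0.51, SE 0.121, adjusted p = 0.0190) had a higher value under sgMyc, and none of the 43 members a lower one, where 6.78% of 10265 genes were higher and 14.2% lower. Brix1 was lower in sgNAT10 mRNA (31.4 and 31.1 FPKM in sgNAT10, against 34.1 and 33.9 FPKM in WT) and higher in sgMyc, while Polr1c fell in both, by less in sgMyc. Without K3, 23 members were lower under sgMyc than under sgNAT10 and 6 were higher, where 36.4% and 23.2% of genes were. The lowest were Nop56 (log2 difference -0.94, SE 0.0473, adjusted p = 2.72e-07), Rrp12 (log2 difference -0.83, SE 0.0682, adjusted p = 6.35e-06) and Nop58 (log2 difference -0.75, SE 0.0440, adjusted p = 7.14e-07), the 3 C/D genes all being lower. The call of Brix1 was lost without sgNAT10 replicate 2 (adjusted p = 0.0554), WT replicate 1 (0.0561) or WT replicate 2 (0.0533) of the sgNAT10 set, and that of Polr1c without the same 3 libraries (0.0881, 0.0638 and 0.0821) or WT replicate 1 of the sgMyc set (0.0536).

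Members with an E-box near the start were set beside those without one. In sgNAT10 mRNA, 9 of 11 members with CACGTG fell and 1 rose, with a median log2 fold change of -0.50. Of 26 without it 19 fell and 1 rose, with a median of -0.32. Among all genes tested, 29.6% fell and 33.7% rose. In the sgMyc set without K3, the 11 with it had a median of -0.57 and the 27 without it a median of -0.63. With K3 the medians were -0.21 with it and -0.15 without it, in the opposite order. These are descriptions of 2 small sets, with no test. Nolc1, with no E-box in its window, had log2 fold changes of -0.96 in sgNAT10 mRNA and -1.04 in the sgMyc set without K3.

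Peaks of acetylated RNA were listed for 12 members, 15 peaks in all, in the authors' deposited table, which rests on 1 precipitate and 1 input a genotype. A peak was listed for 8.07% of the genes tested in sgNAT10 mRNA, and for 13.9% of those at least as abundant in WT as the least abundant member. The second share sets only a floor, 7.52 FPKM, where the median of the members was 29.0 FPKM. Neither share was matched to the members in abundance. Each of the 15 peaks lay inside its gene, and the authors' fold enrichment in the deposited table ran from 1.19 to 2.00 with a median of 1.44, against 1.77 over all 1358 peaks. The highest was in Ncl, at chr1:86350856-86351066 on mm10, 211 bases in the coding sequence with a fold enrichment of 2.00 in the deposited table. A second Ncl peak at chr1:86356416-86358685 joined 5 blocks with a fold enrichment of 1.81 in that table. Pes1 held peaks of 1.96 and 1.44, Nolc1 of 1.53 and 1.42, Utp18 of 1.94, Npm1 of 1.90 and Nop56 of 1.66, all as the authors' fold enrichment in the deposited table. Mybbp1a and Nop2 (1.42 each), Rrs1 (1.41), Tcof1 (1.40), Ubtf (1.33) and Polr1a (1.19) had the lower values of the deposited table. The table's difference between genotypes had a false discovery rate under 0.05 in 11 of the 15 peaks, positive in 7 and negative in 4, and in 887 of all 1358 peaks, positive in 516 and negative in 371, but its columns do not state how the genotypes were subtracted, and no direction is drawn from them. The 12 genes with a peak were not uniform in mRNA. Pes1, Nolc1, Npm1, Ncl, Mybbp1a, Tcof1 and Utp18 fell in sgNAT10 while Polr1a, Ubtf, Nop56, Nop2 and Rrs1 did not pass. Among all genes tested in sgNAT10 mRNA, 29.6% fell and 33.7% rose.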

How the data were processed

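The 18 libraries from TC1 cells held mRNA, ribosome footprints, or acetylated RNA with its input. The submitters' processing notes list Bowtie2, featureCounts, FastQC and Trim Galore, with mm10 as the build, and give neither versions nor order. For sgNAT10 cells and their WT the authors deposited FPKM values of both assays, and for the sgMyc set raw read counts beside FPKM values. The authors' tables also carry their own log2 ratios and p-values, not used here, by a test not given in the sources used here. In the acRIP peak list the authors give each peak a fold enrichment, a score, p-values and a log2 fold difference between genotypes.

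The members and gene lists were chosen with earlier results of these data known. FPKM values were tested as log2(FPKM + 1) with limma 3.58.1 (trended eBayes) where a gene's mean reached 1 FPKM, and the sgMyc counts with edgeR 4.0.16 (filterByExpr, TMM, quasi-likelihood F test), in R 4.3.3. Each fit ran over the whole table with Benjamini-Hochberg adjustment and a threshold of 0.05. Standard errors of edgeR fold changes were worked back from the F test. Translational efficiency was the interaction of genotype and assay, and the difference between the guides a contrast over both mRNA sets, both in limma. Whole reads were recovered for 100.0% of genes within a tolerance of 0.0001 of a read and used with edgeR as an alternative. Further alternatives covered the pseudocount, filters, scaling, DESeq2 1.42.0, the replicate number as a block and each library left out. The scripts were tested on simulated data. Values are printed per library for up to 3 members a role with the smallest adjusted p among those past the test without overlap, members past it against their role, the smallest p where none passed, and 10 members in Ribo-seq; others, such as Rrp9, Wdr74 and Nop58 by library, were chosen after their values were seen. Same-numbered libraries did not deviate together (correlations from -0.02 to 0.02), so the numbers were not taken to pair samples.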

Additional observations from a re-analysis of the deposited data

Results flagged for a closer look

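Brix1, a large subunit assembly gene, differed between the guides: its sgMyc effect minus its sgNAT10 effect on mRNA was 0.43 in log2(FPKM + 1) (limma, adjusted p = 0.0118), with all 3 sgMyc libraries above WT and both sgNAT10 libraries below WT. Polr1c, the subunit shared by RNA polymerases I and III, differed by 0.51 (limma, adjusted p = 0.0190), with every edited library of both sets below its WT libraries and the larger fall in sgNAT10. Both differences came from a test of the difference itself, and both kept their sign with each library left out in turn. Guide and set cannot be told apart in that test. Neither passed with the replicate number as a block, and both calls hung on single libraries of the sgNAT10 set, as given above.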

How the results depend on the processing

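In sgNAT10 mRNA 35 members passed in all, and 30 to 33 with each library left out. In Ribo-seq 3 members passed, against 1 with a pseudocount of 0.1, 7 with a minimum mean of 5 FPKM, 0 without a trend, 9 with edgeR on recovered reads and 1 with the replicate block; with each library left out 0 passed. For translational efficiency 0 passed, also with weights for each assay. Leaving out a library left 1 in its group, and the calls over all genes then shifted. Calls among the members shifted too without the Ribo-seq library of WT replicate 2 or that of sgNAT10 replicate 1. The 0 thus did not hold in every fit. The median over the members was -0.11 without the Ribo-seq library of WT replicate 2. In the sgMyc set 2 members passed, 0 with the replicate block, and 0 to 43 with each library left out, 43 without K3. In the difference between the guides 2 passed, 0 with the replicate block, and 0 to 29 with each library left out: 29 without K3, 1 without WT replicate 1 of the sgMyc set, and 0 without sgNAT10 replicate 2, WT replicate 1 or WT replicate 2 of the sgNAT10 set. Of 11 members with CACGTG, 4 had it in the 250 bases before the start. The cause of these shifts was not tested. In the sgMyc set the median of the members was -0.12, -0.58 without K3 and 0.07 without K1 or K2. Where 1 library was left in a group, it was assumed to vary like the others of the fit. Depth limits single footprint values, the fewest recovered reads of a member in 1 library being 14, itself a lower bound.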
